A study of Mus musculus with 4 samples.

Results

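The genes of the mouse major histocompatibility complex (MHC), called H2, and the machinery that loads peptides onto their products were followed through RNA sequencing of sorted uterine natural killer (NK) cells. Members were every gene in the deposited tables whose symbol starts with H2-, together with B2m, Tap1, Tap2, Tapbp, Cd74, Ciita, Nlrc5, Psmb8, Psmb9 and Psmb10, which gave 46 of 21993 genes. They comprised 2 classical class I genes, 24 nonclassical class I genes, 9 class II genes, 4 genes of the class I pathway, 3 immunoproteasome subunits, the class II chaperone Cd74, 2 transactivators and H2-Ke6, an enzyme gene that shares only the prefix. By the annotation, 41 of the 46 lay on chromosome 17.

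The libraries came from female mice at gd11.5 (gestational day), mated with B6 males, and the labels describe the sorted cells as lacking CD3 and carrying CD45 and NK1.1. In the Ncr1Cre group (2 libraries) Cre recombinase is expressed from Ncr1, a gene of NK cells and related innate lymphocytes, on top of loxP-flanked alleles. The control group (2 libraries) carried the same loxP-flanked alleles without Ncr1Cre, so both groups share the flanked locus and differ in the labels only by Cre. Whether a library pooled several animals was not given in the sources used here, so p-values measure the spread between libraries, which may be technical. Levels are FPKM, fragment numbers scaled to transcript length and to the size of the library, and can be compared between genes because of the scaling to length.

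MHC class I molecules are displayed by nearly all nucleated cells and carry peptides cut by the proteasome, pumped into the endoplasmic reticulum by the TAP transporter and loaded with the help of tapasin and beta-2 microglobulin. Class II molecules are made mainly by B cells, dendritic cells and macrophages, where the invariant chain Cd74 guides them to the endosome. NK cells read class I on other cells through inhibitory receptors and carry class I themselves, while resting mouse NK cells are known for little class II. Transcription of class I genes is driven by Nlrc5 and by promoter elements that bind NF-kappa B and interferon regulatory factors, and class II transcription by Ciita.

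The RNA of these libraries was led by genes of other cell types. Here and below, rose and fell mean called by limma at an adjusted p under 0.05 over all tested genes. Of those genes, 30.9% rose and 17.6% fell. NK cell markers summed to 27.9 to 28.2 FPKM in Ncr1Cre and 19.9 to 20.5 FPKM in control libraries, with Il2rb, Prf1 and Nkg7 the highest of 10, and Il2rb and Prf1 rose in Ncr1Cre among 4 tested. The Il2rb call ended after quantile normalization (adjusted p = 0.0705). Ncr1, which drives the Cre, and the genes of the gate were low as well. Ncr1 stood at 0 and 0.152 FPKM in Ncr1Cre and 0.136 and 0.359 FPKM in control libraries, Klrb1c, which encodes NK1.1, at 0.924 and 0.673 FPKM in Ncr1Cre and 0.449 and 0.973 FPKM in control libraries, and Ptprc, which encodes CD45, at 4.39 and 5.16 FPKM in Ncr1Cre and 2.89 and 2.57 FPKM in control libraries. Cd3e was at 0.0796 and 0.134 FPKM in Ncr1Cre libraries and listed at 0 in both control libraries. Stromal markers, led by Col1a1, Sparc and Col1a2, summed to 14571 to 14574 FPKM in Ncr1Cre and 32679 to 33243 FPKM in control libraries, and all 9 fell. Epithelial markers, led by Krt8, Krt18 and Cldn4, summed to 2047 FPKM in Ncr1Cre and 495 to 520 FPKM in control libraries, and all 9 rose. The label of NK cells was therefore only weakly borne out by its own markers, and in such a mixture fewer cells of a type and less RNA per cell cannot be told apart.

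Several class I promoters share an upstream block of elements, shown here so that class I and class II members can be compared in sequence. Of the 46 members, 37 had a promoter in the RefSeq table of build GRCm38.p6, each a window of 300 bases reaching 250 before the start. Stretches of 200 bases are printed 5′ to 3′ on the gene's own strand. Capitals mark exact matches on either strand to a kappa B element (GGGATTCCC), to an interferon-stimulated response element in the forms TTTCNNTTC or GAAANNGAA, to the cyclic AMP element core TGACG and to the Y box CCAAT. The classical genes H2-K1 at chr17:34000348-34000547 (minus strand) and H2-D1 at chr17:35262894-35263093 (plus strand) show the whole block, and H2-Q4 at chr17:35379417-35379616 (plus strand) shows a nonclassical relative that was called higher. H2-T23 at chr17:36032702-36032901 (minus strand) and H2-T22 at chr17:36042743-36042942 (minus strand) contrast a called with an uncalled nonclassical gene, B2m at chr2:122147487-122147686 (plus strand) gives the shared light chain, and H2-Aa at chr17:34287824-34288023 (minus strand) and H2-Eb1 at chr17:34305667-34305866 (plus strand) stand for class II.
H2-K1: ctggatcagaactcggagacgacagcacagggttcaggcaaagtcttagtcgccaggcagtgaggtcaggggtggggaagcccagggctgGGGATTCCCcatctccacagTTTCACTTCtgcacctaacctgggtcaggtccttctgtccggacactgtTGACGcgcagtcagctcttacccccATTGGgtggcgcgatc
H2-D1: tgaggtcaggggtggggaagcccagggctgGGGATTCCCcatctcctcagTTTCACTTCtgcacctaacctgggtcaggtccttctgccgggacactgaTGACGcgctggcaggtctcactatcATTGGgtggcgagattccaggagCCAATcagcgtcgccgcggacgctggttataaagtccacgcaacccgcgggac
H2-Q4: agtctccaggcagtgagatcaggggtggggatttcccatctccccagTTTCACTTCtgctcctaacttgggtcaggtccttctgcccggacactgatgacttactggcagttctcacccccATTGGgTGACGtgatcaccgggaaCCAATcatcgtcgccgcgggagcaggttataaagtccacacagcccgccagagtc
H2-T23: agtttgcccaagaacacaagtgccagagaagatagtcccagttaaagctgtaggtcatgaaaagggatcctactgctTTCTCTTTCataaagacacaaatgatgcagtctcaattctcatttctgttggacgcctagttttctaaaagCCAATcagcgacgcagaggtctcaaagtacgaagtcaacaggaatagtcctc
H2-T22: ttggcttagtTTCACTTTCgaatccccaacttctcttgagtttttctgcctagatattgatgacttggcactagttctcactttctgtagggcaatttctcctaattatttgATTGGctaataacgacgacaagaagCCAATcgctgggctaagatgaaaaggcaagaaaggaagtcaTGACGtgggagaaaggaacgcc
B2m: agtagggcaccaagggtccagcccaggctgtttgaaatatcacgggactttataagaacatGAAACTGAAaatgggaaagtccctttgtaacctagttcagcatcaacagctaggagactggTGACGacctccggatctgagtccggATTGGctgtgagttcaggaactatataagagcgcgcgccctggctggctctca
H2-Aa: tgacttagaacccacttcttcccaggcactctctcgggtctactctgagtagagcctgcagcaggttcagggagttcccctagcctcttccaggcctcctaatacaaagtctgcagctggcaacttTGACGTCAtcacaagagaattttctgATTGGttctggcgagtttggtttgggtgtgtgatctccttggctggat
H2-Eb1: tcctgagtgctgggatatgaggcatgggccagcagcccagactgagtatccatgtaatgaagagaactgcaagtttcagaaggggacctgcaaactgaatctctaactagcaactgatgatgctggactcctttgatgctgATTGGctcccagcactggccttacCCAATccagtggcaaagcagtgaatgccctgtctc

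The kappa B letters stood in 4 of the 37 member promoters, those of H2-K1, H2-D1, H2-Q6 and H2-Q7, and in 0.35% of all 32851 promoter windows in the table. Only these exact letters were counted. H2-Q4 holds gggatttccc, the same letters with an extra T, shortly before its interferon element, and was not counted. In H2-K1, H2-D1 and H2-Q6 the first base of the kappa B match lay 20 bases before that of the interferon element, and in H2-Q7 it lay 19 bases before. Either interferon form was present in 11 of 37 member promoters, 8 of them among 20 nonclassical promoters and 0 among 8 class II promoters, against 14.85% of all windows. Each member was counted by its first window only, while every window entered the share. The form lay 153, 152 and 155 bases before the start in H2-Q4, H2-Q6 and H2-Q10, so related promoters are counted separately. The Y box was found in 31 of 37 member promoters, including 7 of 8 class II promoters, and in 37.41% of all windows. The core TGACG was found in 15 of 37, against 20.81%, and the pair in H2-Aa overlaps as TGACGTCA. The windows of Psmb9 and Tap1 share 275 bases, so the Y box and the core TGACG there are counted for both genes. H2-T22 and H2-M3, which were not called, also carried an interferon form. A match is a stretch of letters and was not tested as a binding site.

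Of the 46 members, 24 averaged at least 1 FPKM over the 4 libraries and were tested, 22 lay below that level, and 9 of these were listed at 0 in every library. Against the controls, 17 of the 24 tested members rose in Ncr1Cre and none fell (limma on log2(FPKM + 1), Benjamini-Hochberg adjusted p under 0.05 over all 11762 tested genes). At an unadjusted p under 0.05, 0 members were lower as well. Across all tested genes, 30.9% were called higher and 17.6% lower, 48.5% in all, so many calls in any list belong to the background. The values of the genotypes were apart, with Ncr1Cre higher, for 19 members and apart with Ncr1Cre lower for Tapbp alone, against 46.4% and 29.9% of all tested genes. Annotated exons of other genes overlap those of Tapbp, Tap1, Tap2, Psmb8, Psmb9, H2-Q4, H2-T22, H2-T10, Nlrc5 and Cd74, and without a stated strand such reads cannot be assigned with certainty. The median log2 difference was 0.51 over the 24 members and 0.11 over all tested genes. Median rescaling subtracted the median of 0.11 from the log2 values of the Ncr1Cre libraries and left the control libraries unchanged. It gave 15 members called higher and Tapbp called lower, with 24.9% and 22.9% of all genes (2924 and 2694) called in those directions. Quantile normalization gave 13 higher and Tapbp lower, with 22.2% and 25.8% of all genes (2615 and 3032).

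**Figure D1:**
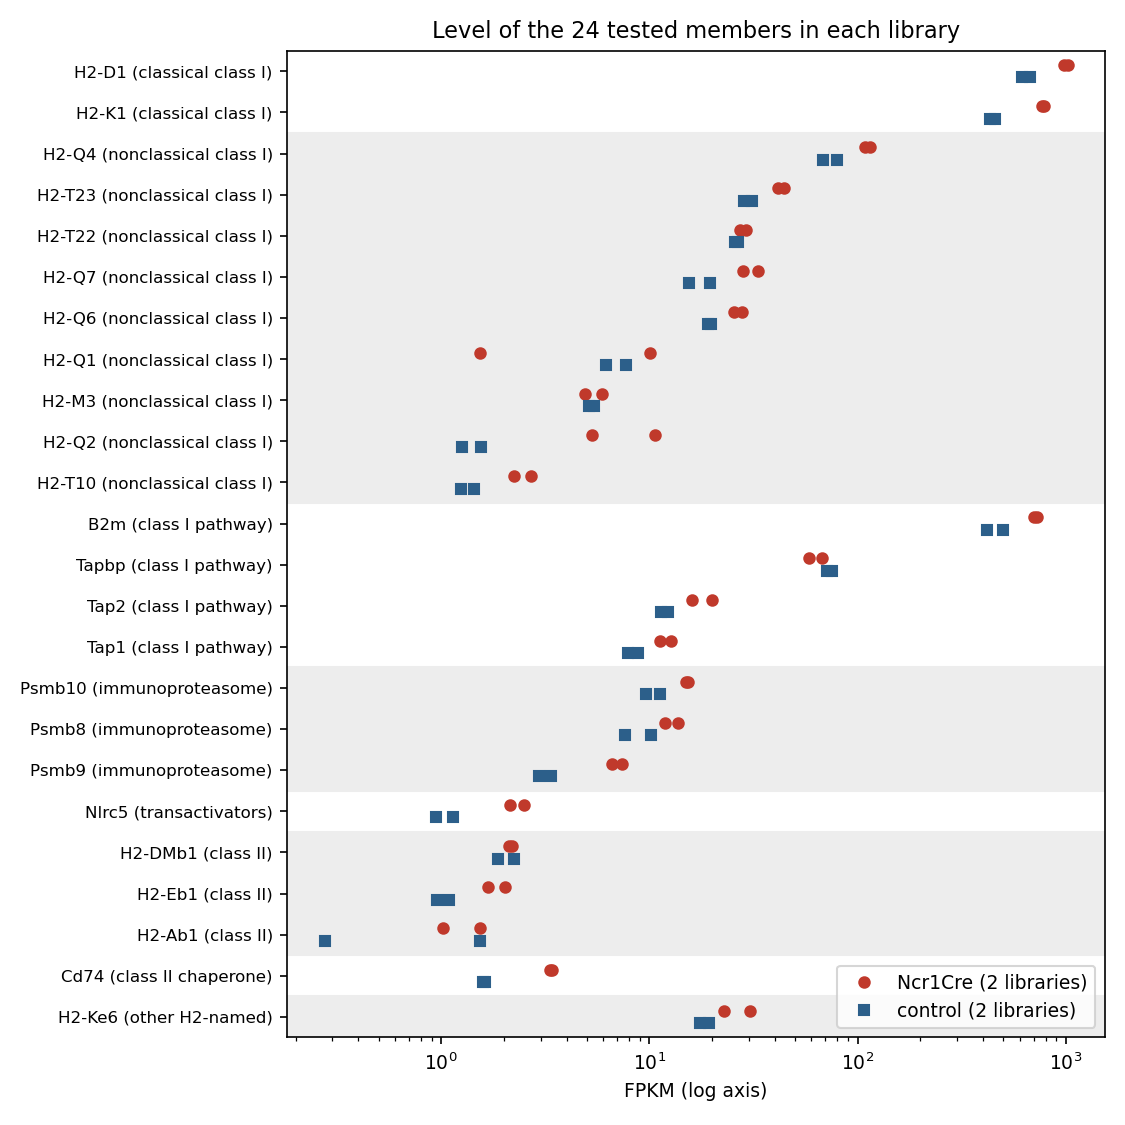
FPKM of the 24 tested members in each of the 2 Ncr1Cre (circles) and 2 control (squares) libraries, on a log axis, grouped by class. Classical class I and B2m sit at or above 419.6 FPKM in all 4 libraries, while class II genes sit at or under 2.24 FPKM.

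The classical class I genes H2-K1 and H2-D1, which present peptides to CD8 T cells and are read by NK cell receptors, were the most abundant members, and both rose in Ncr1Cre. H2-K1 had 788 and 766 FPKM in Ncr1Cre libraries, against 459 and 431 FPKM in control libraries. The 2 genotypes were far apart and the libraries within each were close. The difference for H2-K1 was 0.80 on the log2 scale (SE 0.064, limma adjusted p = 0.000762), with means of 777 ± 15.6 FPKM in Ncr1Cre and 445 ± 19.7 FPKM in control (SD, n = 2 each). H2-D1 had 1020 and 978 FPKM in Ncr1Cre libraries, against 672 and 617 FPKM in control libraries, a log2 difference of 0.63 (SE 0.071, limma adjusted p = 0.00204). Among all genes, ranked by FPKM, H2-D1 was number 43 and 46 in Ncr1Cre libraries, against 74 and 87 in controls. H2-K1 was number 67 and 80 in Ncr1Cre and 132 and 139 in control libraries. H2-D1 exceeded H2-K1 in every library, by a ratio of 1.29 and 1.28 in Ncr1Cre and 1.46 and 1.43 in control libraries.

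B2m encodes the light chain that every class I heavy chain needs at the surface. It had 704 and 731 FPKM in Ncr1Cre libraries, against 420 and 498 FPKM in control libraries. The genotypes did not overlap, and the log2 difference was 0.65 (SE 0.098, limma adjusted p = 0.00524). Summed over all 26 heavy chain genes, class I stood at 2.95 and 2.74 times B2m in Ncr1Cre libraries and at 3.15 and 2.45 times B2m in control libraries. These ratios overlapped between the genotypes.

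Among the 24 nonclassical class I genes, 9 were tested, 6 rose, none fell, and 3 were not called. Beside them, 30.9% of all tested genes rose and 17.6% fell. H2-Q4 was the most abundant, with 114 and 108 FPKM in Ncr1Cre libraries, against 79.3 and 68.2 FPKM in control libraries. It rose by 0.59 on the log2 scale (SE 0.094, limma adjusted p = 0.00617) and made up 42.7% and 41.9% of the nonclassical sum in Ncr1Cre and 41.1% and 39.6% in control libraries. H2-T23 encodes Qa-1, which presents class I leader peptides to the inhibitory receptor CD94/NKG2A of NK cells. It had 41.7 and 44.4 FPKM in Ncr1Cre libraries, against 30.9 and 28.5 FPKM in control libraries, a log2 difference of 0.52 (SE 0.080, limma adjusted p = 0.00554). Every value in Ncr1Cre lay above every control value for both genes, as it did for 46.4% of all tested genes.

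H2-Q6 and H2-Q7 encode Qa-2 antigens. H2-Q7 had 33.0 and 28.0 FPKM in Ncr1Cre libraries, against 19.5 and 15.4 FPKM in control libraries (log2 difference 0.78, SE 0.143, limma adjusted p = 0.00975). H2-Q6 had 25.5 and 27.9 FPKM in Ncr1Cre libraries, against 19.7 and 19.2 FPKM in control libraries (log2 difference 0.44, SE 0.081, limma adjusted p = 0.0101). Neither pair of groups overlapped. Their transcripts are close copies: 16.4% of the 100-base windows of H2-Q7 and 10.8% of those of H2-Q6 occur in another gene, so the division of fragments between them is uncertain.

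H2-T22 and H2-T10 are close relatives known as ligands of a subset of gamma delta T cells, and H2-T10 was called while H2-T22 was not. H2-T22 had 27.2 and 29.2 FPKM in Ncr1Cre libraries, against 26.7 and 25.7 FPKM in control libraries, values that did not overlap but did not pass the test (log2 difference 0.10, SE 0.076, limma adjusted p = 0.316). H2-T10 had 2.69 and 2.25 FPKM in Ncr1Cre libraries, against 1.43 and 1.25 FPKM in control libraries (log2 difference 0.57, SE 0.122, limma adjusted p = 0.016). The H2-T10 call ended under quantile normalization (adjusted p = 0.0508), without Ncr1Cre replicate 1 (0.0536) and without control replicate 2 (0.0745). The genes share windows, 14.2% of those of H2-T22 and 11.8% of those of H2-T10, and the difference between their changes was not tested. H2-M3, which presents N-formylated peptides, had 5.92 and 4.89 FPKM in Ncr1Cre libraries, against 5.11 and 5.41 FPKM in control libraries. Its groups overlapped and it was not called (log2 difference 0.03, SE 0.116, limma adjusted p = 0.86).

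H2-Q2 showed the widest change of any tested member and H2-Q1 the least repeatable one. H2-Q2 had 5.31 and 10.7 FPKM in Ncr1Cre libraries, against 1.55 and 1.26 FPKM in control libraries (log2 difference 1.84, SE 0.300, limma adjusted p = 0.00668). H2-Q1 had 10.1 and 1.54 FPKM in Ncr1Cre libraries, against 7.74 and 6.16 FPKM in control libraries. The library with the lower H2-Q1 held the higher H2-Q2, and H2-Q1 was not called (log2 difference -0.58, SE 0.683, limma adjusted p = 0.522). Without Ncr1Cre replicate 1, H2-Q1 was called lower at -1.64 on the log2 scale (adjusted p = 0.00104), which rests on a lone Ncr1Cre library assumed to vary like the controls. In H2-Q1, 13.1% of windows occur in transcripts of another gene, H2-Q2 among them, while 0% of the windows of the longest coding transcript of H2-Q2 do. The pair together held 15.4 and 12.2 FPKM in Ncr1Cre libraries and 9.28 and 7.43 FPKM in control libraries, values that did not overlap.

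The remaining 15 nonclassical genes stayed at or below 0.866 FPKM in every library and were not tested. H2-Q10, H2-T24, H2-M5, H2-M9, H2-M10.2, H2-Bl and H2-T3 had a value above 0 in at least 1 library, and H2-Q10 held the highest of these values. H2-M1, H2-M2 and H2-M11 were listed at 0 in all 4 libraries. So were 5 more genes of the H2-M10 group, which is known from vomeronasal neurons.

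**Figure D2:**
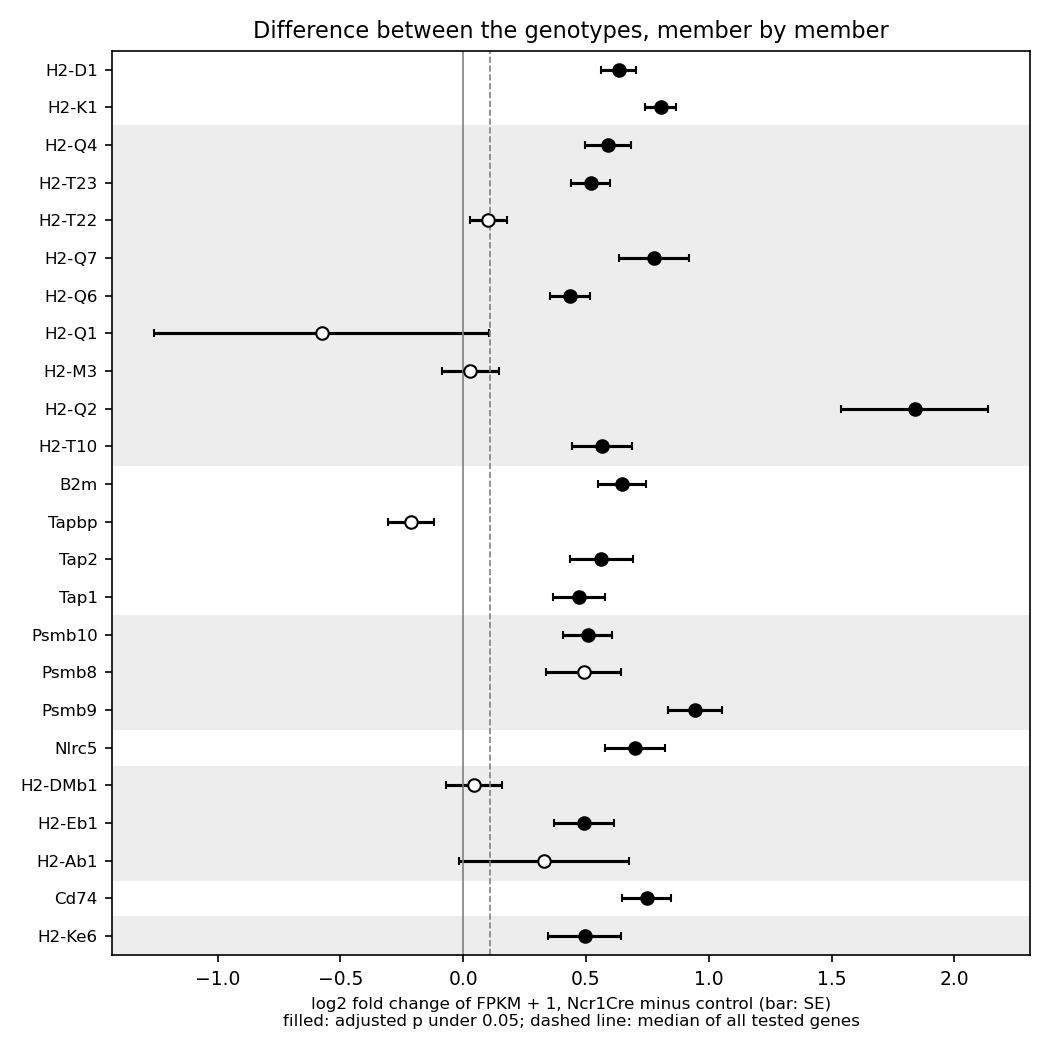
Log2 difference of FPKM + 1, Ncr1Cre minus control, for the 24 tested members with its SE, where filled points passed the test and the dashed line is the median of all tested genes at 0.11. Of the members, 17 are filled and all of these lie to the right of 0, with H2-Q2 farthest right at 1.84.

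Both subunits of the peptide transporter rose, while tapasin, which tethers empty class I to it, was not called. Tap1 had 11.2 and 12.8 FPKM in Ncr1Cre libraries, against 7.90 and 8.81 FPKM in control libraries (log2 difference 0.47, SE 0.105, limma adjusted p = 0.0178). Tap2 had 20.01 and 16.0 FPKM in Ncr1Cre libraries, against 12.3 and 11.3 FPKM in control libraries (log2 difference 0.56, SE 0.127, limma adjusted p = 0.0183). Neither overlapped, but quantile normalization ended the Tap1 call (adjusted p = 0.0626). Leaving out a library ended it too, without Ncr1Cre replicate 2 (0.0634) and without control replicate 1 (0.0815), and ended the Tap2 call without control replicate 2 (0.0761). Tapbp, the tapasin gene, had 67.8 and 58.3 FPKM in Ncr1Cre libraries, against 75.1 and 70.9 FPKM in control libraries. It was lower in both Ncr1Cre libraries without passing the test (log2 difference -0.21, SE 0.095, limma adjusted p = 0.124). Tapbp was called lower after median rescaling at -0.32 (adjusted p = 0.0416) and after quantile normalization at -0.39 (adjusted p = 0.0231), and with a replicate block (adjusted p = 0.0453).

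The immunoproteasome replaces the catalytic subunits of the standard proteasome and favours peptides that bind class I. Psmb9 had 7.39 and 6.63 FPKM in Ncr1Cre libraries, against 2.95 and 3.37 FPKM in control libraries, a log2 difference of 0.95 (SE 0.110, limma adjusted p = 0.00229). Psmb10 had 15.3 and 14.998 FPKM in Ncr1Cre libraries, against 11.2 and 9.60 FPKM in control libraries, a log2 difference of 0.51 (SE 0.10, limma adjusted p = 0.0122). Psmb8 had 13.8 and 11.8 FPKM in Ncr1Cre libraries, against 10.1 and 7.63 FPKM in control libraries. All 3 subunits were higher in every Ncr1Cre library, but Psmb8 fell just short of the threshold (log2 difference 0.49, SE 0.154, limma adjusted p = 0.0503). It passed with a replicate block (0.0147), without Ncr1Cre replicate 2 (0.0418) and without control replicate 1 (0.0277).

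Set against the standard subunits they replace, the immunoproteasome genes stayed a minority in both genotypes. Psmb9 stood at 0.0688 and 0.0670 times Psmb6 in Ncr1Cre libraries and at 0.0404 and 0.0466 times Psmb6 in control libraries. Psmb8 stood at 0.0949 and 0.0912 times Psmb5 in Ncr1Cre libraries, below 0.154 and 0.125 times Psmb5 in control libraries. Psmb5 itself was at 145 and 130 FPKM in Ncr1Cre and 65.8 and 60.8 FPKM in control libraries. Psmb10 stood at 0.296 and 0.294 times Psmb7 in Ncr1Cre and at 0.289 and 0.223 times Psmb7 in control libraries. The Psmb9 ratio was thus higher in both Ncr1Cre libraries, the Psmb8 ratio lower, and the Psmb10 ratio higher by a small margin. Psmb9 and Tap1 are neighbours transcribed in opposite directions, with starts 226 bases apart in the RefSeq table, and Psmb9 stood at 0.659 and 0.520 times Tap1 in Ncr1Cre and at 0.373 and 0.383 times Tap1 in control libraries. Their annotated exons also overlap, so this ratio is uncertain.

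Nlrc5, the transactivator of class I promoters, had 2.50 and 2.14 FPKM in Ncr1Cre libraries, against 0.945 and 1.14 FPKM in control libraries. It rose by 0.70 on the log2 scale (SE 0.123, limma adjusted p = 0.00837), with no overlap between the genotypes. Ciita, the transactivator of class II promoters, did not exceed 0.0423 FPKM in any library and was not tested. H2-Ke6, also called Hsd17b8 and known as a mitochondrial fatty acid and steroid dehydrogenase gene, had 30.3 and 22.9 FPKM in Ncr1Cre libraries, against 19.4 and 17.4 FPKM in control libraries. Its call (log2 difference 0.50, SE 0.149, limma adjusted p = 0.0438) ended after median rescaling (0.0882), after quantile normalization (0.107), without a filter on low values (0.0727), without the intensity trend (0.0539) and without Ncr1Cre replicate 1, control replicate 1 or control replicate 2 (0.101, 0.0811 and 0.153). In H2-Ke6, 41.2% of windows also occur in an overlapping gene.

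Class II genes were low in both genotypes. Of 9 genes, 3 were tested and H2-Eb1 alone was called. H2-Eb1, a beta chain, had 2.03 and 1.67 FPKM in Ncr1Cre libraries, against 0.958 and 1.09 FPKM in control libraries (log2 difference 0.49, SE 0.122, limma adjusted p = 0.0248). The call ended after median rescaling (0.0531), after quantile normalization (0.101) and in 3 of the 4 fits that left out a library, without Ncr1Cre replicate 1 (0.0878), control replicate 1 (0.107) or control replicate 2 (0.0675). H2-Ab1, another beta chain, had 1.53 and 1.03 FPKM in Ncr1Cre libraries, against 1.54 and 0.275 FPKM in control libraries. The control libraries differed more from each other than the genotypes did, and H2-Ab1 was not called (log2 difference 0.33, SE 0.346, limma adjusted p = 0.469). Without control replicate 1 it was called at 0.83 (adjusted p = 0.0403), with a lone control library. H2-DMb1, a chain of the peptide editor of class II, had 2.19 and 2.11 FPKM in Ncr1Cre libraries, against 1.88 and 2.24 FPKM in control libraries, and was not called (log2 difference 0.04, SE 0.114, limma adjusted p = 0.768). Of its windows, 13.7% occur in another gene, H2-DMb2 among them.

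The alpha chain H2-Aa, which pairs with H2-Ab1, had 0.509 and 0.664 FPKM in Ncr1Cre libraries, against 0.595 and 0.343 FPKM in control libraries. H2-DMa, the partner of H2-DMb1, had 1.00 and 1.52 FPKM in Ncr1Cre libraries, against 0.521 and 0.591 FPKM in control libraries. H2-DMa did not overlap between the genotypes, H2-Aa did, and both lay below the level for a test. H2-Oa, H2-Ob and H2-DMb2 did not exceed 0.0804 FPKM, and H2-Eb2 was listed at 0 in every library.

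Cd74 encodes the invariant chain and rose in every alternative in which it was tested. It had 3.41 and 3.33 FPKM in Ncr1Cre libraries, against 1.62 and 1.59 FPKM in control libraries, a log2 difference of 0.75 (SE 0.099, limma adjusted p = 0.0035). Cd74 lay above every class II chain in both Ncr1Cre libraries, while H2-DMb1 was higher than Cd74 in both control libraries. Markers of the cells that make most class II are set beside these values. Macrophage and dendritic cell markers, led by Cd14, Cd68 and Lyz2, summed to 91.9 to 93.1 FPKM in Ncr1Cre and 29.8 to 31.9 FPKM in control libraries. Of 7 tested, 5 rose and 2 were not called, beside 30.9% of all tested genes that rose. The genotypes were apart with Ncr1Cre higher for 6 of the 7 and with Ncr1Cre lower for 1, against 46.4% and 29.9% of all tested genes. B cell markers, led by Cd79b, Cd79a and Blk, summed to 2.63 to 3.92 FPKM in Ncr1Cre and 1.07 to 1.16 FPKM in control libraries. Most of each sum was Cd79b, at 2.27 and 3.43 FPKM in Ncr1Cre and 0.933 and 0.711 FPKM in control libraries. Only Cd79b was tested, and it was called higher. Cd79a overlapped, at 0.250 and 0.236 FPKM in Ncr1Cre and 0.232 and 0.295 FPKM in control libraries. Ms4a1 and Pax5 were listed at 0 in all libraries. The part of these cells in the class II and Cd74 values was not tested.

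Compared as classes, the order classical class I, nonclassical class I, class II held in every library. Classical class I summed to 1808 and 1744 FPKM in Ncr1Cre libraries, against 1130 and 1048 FPKM in control libraries. Nonclassical class I summed to 267 and 259 FPKM in Ncr1Cre libraries, against 193 and 172 FPKM in control libraries. Class II summed to 7.32 and 7.10 FPKM in Ncr1Cre libraries, against 5.52 and 4.58 FPKM in control libraries. All 3 sums were higher in both Ncr1Cre libraries than in either control library, by a ratio of means of 1.63 for classical class I, 1.44 for nonclassical class I and 1.43 for class II. Over all genes the FPKM sums were themselves 1.19 times higher in Ncr1Cre, at 460108 and 468192 against 384852 and 396770 in control libraries.

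**Figure D3:**
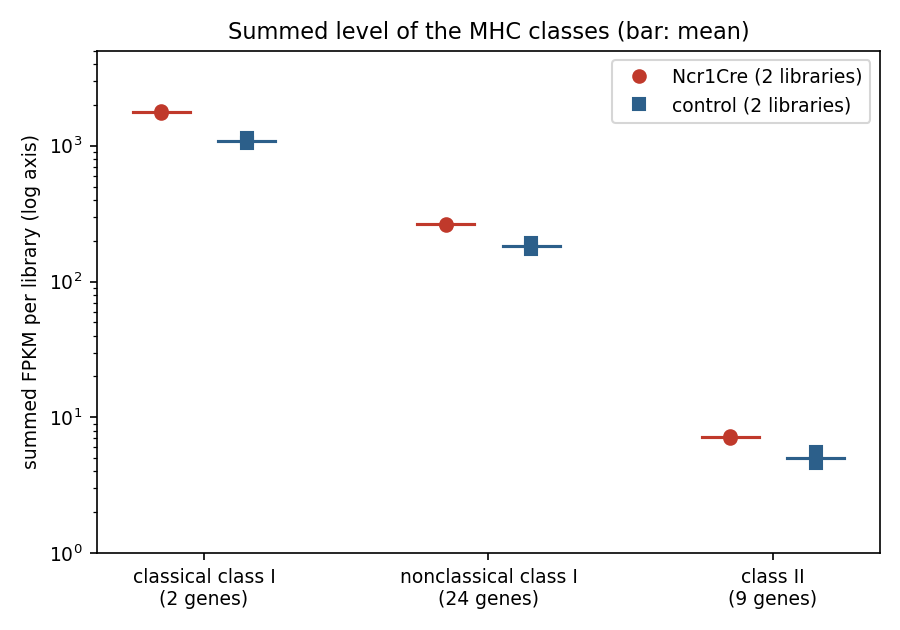
Summed FPKM of 2 classical class I, 24 nonclassical class I and 9 class II genes in each library, on a log axis, with the group mean as a bar. Ncr1Cre lies above control in each class, and class II lies far below both class I groups.

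Within a library the balance of the classes can be read without any scaling between libraries. Classical over nonclassical class I was 6.76 and 6.74 in Ncr1Cre libraries, against 5.85 and 6.09 in control libraries, which did not overlap. Class I over class II was 284 and 282 in Ncr1Cre libraries, against 240 and 266 in control libraries, which did not overlap either. The class II sums below it were only 4.58 to 7.32 FPKM. They include H2-Ab1, at 1.54 and 0.275 FPKM in the control libraries. With H2-Ab1 left out of the class II sums, the ratios of the genotypes overlap, so the gap rests on that gene. Nonclassical class I over class II was 36.5 and 36.4 in Ncr1Cre libraries, inside the range of 35.0 and 37.6 in control libraries. With 2 libraries against 2, an exact permutation test cannot go below p = 0.333, so these ratios are descriptions. By calls, both classical genes, 6 of 9 nonclassical genes and 1 of 3 class II genes rose, beside 30.9% of all tested genes. The class II count lay near that share, and its call, H2-Eb1, ended after median rescaling and after quantile normalization. The difference between classes in these counts was not tested.

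Class I and its loading genes are made by nearly every cell, so markers of the other cell types in these libraries are set beside them. Trophoblast markers, led by Tpbpa, Prl3b1 and Prl7a2, summed to 938 to 1061 FPKM in Ncr1Cre and 312 to 353 FPKM in control libraries, with all 4 tested higher and Gcm1 listed at 0 in all libraries. Endothelial markers, led by Cdh5, Tek and Pecam1, summed to 25.7 to 26.3 FPKM in Ncr1Cre and 14.4 to 14.5 FPKM in control libraries. Of 5 tested, 2 were called higher and 1 lower. Over all tested genes these shares were 30.9% and 17.6%, so the endothelial counts lay near the background. T cell markers, led by Cd3g, Cd3d and Cd3e, summed to 0.575 to 0.678 FPKM in Ncr1Cre and 0.404 to 0.615 FPKM in control libraries, and none reached the level for a test. The part of stromal, epithelial, trophoblast, endothelial or immune cell content in the class I values was not tested, and with 2 genotypes and no other contrast it cannot be told apart from a change within NK cells.

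Genes that assist the same pathways gave a mixed account. Over 7 further lists, 19 of 44 tested genes rose and 6 fell, beside 30.9% and 17.6% of all tested genes. Genes that stand on more than 1 list are counted once here and in each of their lists below. Among 6 peptide loading helpers, 2 rose and 1 fell, with a median log2 difference of 0.13. Calr, a chaperone of the loading complex, had 661 and 709 FPKM in Ncr1Cre libraries, against 418 and 430 FPKM in control libraries (log2 difference 0.69, limma adjusted p = 0.00129). Pdia3, its partner oxidoreductase, had 283 and 300 FPKM in Ncr1Cre libraries, against 185 and 208 FPKM in control libraries and rose by 0.57. Lnpep, an aminopeptidase of cross-presentation, fell to 3.71 and 3.15 FPKM in Ncr1Cre libraries, against 5.36 and 4.73 FPKM in control libraries (log2 difference -0.45, limma adjusted p = 0.0296). Calr and Pdia3, which are named for their small p, moved the way of the heavy chains, while 3 other helpers and tapasin were not called. The counts and median of this list lay near those of all tested genes, whose median was 0.11.

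Of 6 standard proteasome subunits and activators, 5 rose and none fell (median log2 difference 0.44), beside 30.9% and 17.6% of all tested genes. Psmb5 rose by 1.10, Psmb6 by 0.50 and the activator gene Psme1 by 0.53, at 51.4 and 54.1 FPKM in Ncr1Cre and 34.1 and 38.4 FPKM in control libraries. All 6 genes for lysosomal proteases and the reductase of class II processing rose (median 0.98). Ctsb, a cysteine protease, had 2260 and 2254 FPKM in Ncr1Cre libraries, against 745 and 732 FPKM in control libraries (log2 difference 1.61, limma adjusted p = 0.00015). Lgmn, an asparaginyl endopeptidase, had 86.8 and 83.9 FPKM in Ncr1Cre and 36.8 and 35.4 FPKM in control libraries, and Ctsd, an aspartic protease, had 390 and 419 FPKM in Ncr1Cre and 239 and 247 FPKM in control libraries. These proteases work in lysosomes of most cells, and their levels were far above those of any class II chain.

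Class I-like genes outside H2 went mostly the other way, with 3 of 5 tested lower and 1 higher (median log2 difference -0.33). Of all tested genes, 17.6% were called lower and 30.9% higher. Fcgrt, the neonatal Fc receptor, fell to 71.4 and 75.1 FPKM in Ncr1Cre libraries, against 138 and 152 FPKM in control libraries (log2 difference -0.97, limma adjusted p = 0.000766). Cd1d1, which presents lipids to NKT cells, fell to 1.82 and 1.80 FPKM in Ncr1Cre libraries, against 3.80 and 3.60 FPKM in control libraries (log2 difference -0.74). Procr, the endothelial protein C receptor, had 8.26 and 8.34 FPKM in Ncr1Cre libraries, against 3.08 and 3.39 FPKM in control libraries (log2 difference 1.14). Fcgrt pairs with B2m, as class I does, and changed in the direction opposite to B2m.

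Of 12 genes for factors that act on MHC promoters, 2 rose and 1 fell, below the 30.9% and 17.6% of all tested genes. Their median log2 difference of 0.12 lay next to the 0.11 of all genes. Irf1, a factor known to bind interferon elements, fell to 81.3 and 78.5 FPKM in Ncr1Cre libraries, against 119 and 127 FPKM in control libraries (log2 difference -0.62, limma adjusted p = 0.00192). Irf2, a related factor, had 8.001 and 8.05 FPKM in Ncr1Cre libraries, against 5.39 and 6.11 FPKM in control libraries. It rose by 0.42 on the log2 scale (limma adjusted p = 0.0199), and the call ended after median rescaling (0.0501) and quantile normalization (0.0906). Irf1 remained called lower after both scalings (0.0012 and 0.00117), while the class I genes that were called rose. A link between Irf1 and these genes was not tested.

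Of 9 tested genes of the interferon gamma pathway, 4 rose and 2 fell, with a median log2 difference of 0.14. Over all tested genes, 30.9% rose and 17.6% fell, with a median of 0.11, so these counts are near the background. Gbp3, an interferon-induced GTPase gene, had 17.9 and 19.1 FPKM in Ncr1Cre libraries, against 6.40 and 6.45 FPKM in control libraries (log2 difference 1.39, limma adjusted p = 0.000367). The receptor kinase genes moved in opposite directions, Jak2 with 26.6 and 26.6 FPKM in Ncr1Cre and 14.2 and 14.8 FPKM in control libraries, and Jak1 with 42.9 and 41.4 FPKM in Ncr1Cre and 82.9 and 85.5 FPKM in control libraries. Of 16 genes for NK cell receptors of class I, 2 were tested and neither was called. Klra7 had 1.80 and 1.497 FPKM in Ncr1Cre libraries, against 1.16 and 0.941 FPKM in control libraries, and Klra8 had 1.86 and 1.74 FPKM in Ncr1Cre libraries, against 1.94 and 1.11 FPKM in control libraries. The other 14 receptor genes averaged below the level for a test.

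**Figure D4:**
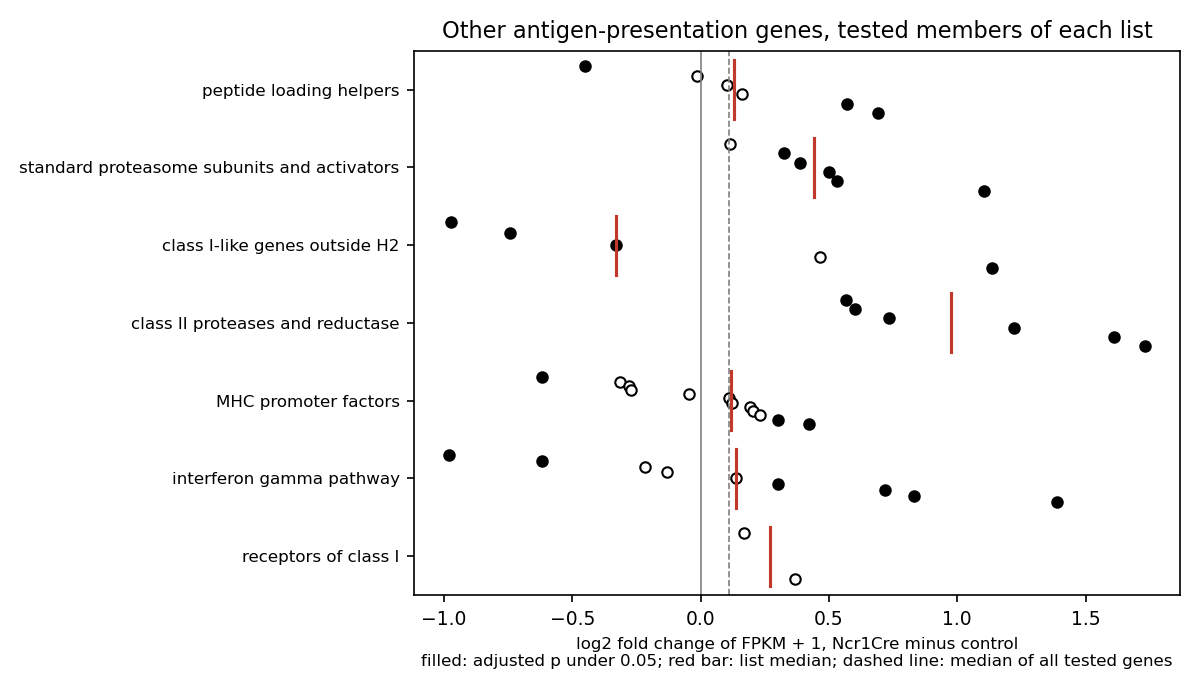
Log2 difference of FPKM + 1, Ncr1Cre minus control, for each tested gene of 7 lists, where filled points passed the test, red bars are list medians and the dashed line is the median of all tested genes at 0.11. The class II proteases and reductase all lie to the right of 0, while 3 of 5 class I-like genes outside H2 lie to its left as filled points.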

How the data were processed

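RNA of sorted uterine cells was sequenced in 4 libraries. FPKM values per gene were deposited by the authors and come from Cufflinks on build mm9, per the submitters' processing notes. Not given in the sources used here are its version, the aligner, the annotation and how multiply mapped reads were counted. Depth was estimated from the spacing of low FPKM values, with 31.5 to 35.0% of them whole fragments within 0.02, at 25990000 and 22660000 fragments in Ncr1Cre and 38500000 and 20950000 in control libraries, too few whole values for a count test. A fragment per kilobase was worth 0.0260 to 0.0477 FPKM. Genes averaging at least 1 FPKM (11762 of 21993) were tested with limma 3.58.1 (R 4.3.3), fitted with an intensity trend to log2(FPKM + 1), and Benjamini-Hochberg adjustment at 0.05. A fold change on this scale understates that of low genes. The fit was tested on simulated data. Members and lists were chosen with earlier results of these data known. Every member averaging at least 1 FPKM is named, with up to 3 genes of the smallest p per pathway list and the highest mean per marker list, and 4 checks of the sort (Psmb7 was added as the partner of Psmb10). Adgre1 was analysed under its older symbol Emr1, and Trac was not analysed here. Promoters, transcript lengths and shared windows come from GRCm38 annotations, and no coordinates were converted. Replicate libraries differed by more than counting error, with a median chi-square of 2.11 in Ncr1Cre and 2.06 in control. Alternatives were another pseudocount, filter or scaling, no intensity trend, a replicate block and leaving out each library. The rest of the genotype and a gene that the naming rule would add are not reported here.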

Additional observations from a re-analysis of the deposited data

How the results depend on the processing

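Of the 17 members called higher, 12 kept their call in all 11 alternatives wherever they were tested: H2-K1, H2-D1, B2m, H2-Q4, H2-T23, H2-Q7, H2-Q6, H2-Q2, Psmb9, Psmb10, Nlrc5 and Cd74. The count of members called higher was 17 with a pseudocount of 0.1 or without a filter, 16 without the intensity trend, 15 after median rescaling, 13 after quantile normalization, 12 of 17 tested at a mean of at least 5 FPKM, and 13 to 17 when a library was left out. The replicate block gave 18, with 3814 of all genes higher and 2190 lower; the numbers are no pairing in the labels, and the differences between replicates 1 and 2 correlated at 0.161 over 11762 genes. The count of members called lower, 0, became 1 (Tapbp) after median rescaling, quantile normalization or the replicate block, and was 0 to 1 when a library was left out (H2-Q1, without Ncr1Cre replicate 1). Over all genes the count called lower, 2071, was 1354 to 1883 when a library was left out, lowest without control replicate 1. The log2 ratio of class sums was 0.71 for classical class I, and became 0.60 after median rescaling, 0.51 after quantile normalization and 0.80 without H2-D1. For nonclassical class I it was 0.53, and 0.36 after quantile normalization. For class II it was 0.51, then 0.17 after quantile normalization and 0.76 without H2-DMb1. The cause of these shifts was not tested. Depth limits the values of low genes: among tested class II genes, H2-Ab1 rests on an estimated 48.1 and 28.2 fragments in Ncr1Cre and 71.9 and 6.99 in control libraries.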
